A study of Mus musculus with 6 samples.

Results

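Des, Ldb3, Csrp3, Tcap, Myoz2, Nexn, Xirp1, Xirp2, Flnc and Synpo2l encode proteins that anchor the contractile apparatus of the heart muscle cell at its Z-discs, at the costameres under its membrane and at the intercalated discs between cells. These 10 genes were taken by name from 36047 mouse genes with transcripts in the data, and 10 of 10 passed the filter on low counts that left 20094 genes for testing. RNA sequencing of infarcted heart tissue asked what blocking Wnt secretion does to the transcriptome of the healing infarct. C57BL6 mice (12 weeks old by the labels, female by the study's methods) underwent ischemia/reperfusion (I/R) injury by temporary occlusion of the left anterior descending artery. In all, 3 received LGK-974 by mouth, a small molecule that inhibits Porcupine, the acyltransferase that Wnt proteins need before they can be secreted, and 3 received the DMSO vehicle. The infarct area was taken 48 h after I/R and each mouse gave 1 library, so both groups carry the injury and no uninjured heart was analysed here.

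The Z-disc is the plate where thin filaments of opposite polarity from neighboring sarcomeres are cross-linked by alpha-actinin and where the ends of titin are held. Costameres tie the outermost Z-discs to the plasma membrane and the matrix through an integrin complex and a dystrophin complex, and intercalated discs pass the force on to the next cell. Several proteins of these sites also bind signaling enzymes and are known to respond to stretch and injury of the muscle. All 10 genes are annotated as protein-coding on GRCm38. Des lies on chr1:75360329-75368579, Xirp2 on chr2:67446002-67526614, Myoz2 on chr3:123006206-123035015 and Nexn on chr3:152236982-152266350. Flnc lies on chr6:29433256-29461883, Csrp3 on chr7:48830398-48848033, Xirp1 on chr9:120013755-120023598 and Tcap on chr11:98383811-98384953. Synpo2l (chr14:20658946-20668354) and Ldb3 (chr14:34526603-34588682) share chromosome 14. Exons of 3 of the genes overlap another annotated gene, by 220 bases in Des and 168 bases in Xirp2 (both an antisense gene) and by 287 bases in Nexn, and whether counting used the strand is not stated.

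Depth was 46208470 to 80398211 estimated counts per library with LGK-974 and 41579787 to 48517100 with DMSO, and the smallest count of any of the 10 genes in a library was 4782. The library of DMSO replicate 1 stood apart. Of 2013 olfactory, vomeronasal and taste receptor genes, families with little known use in the heart, 98.1% had counts in it against 48.0% to 79.5% in the other libraries. Leaving it out lowered the common dispersion (the squared biological variation between mice that edgeR fits) from 0.238 to 0.0825, and values are also given without it. The 15 cardiomyocyte markers were present in every library and summed, in CPM (the counts of a gene scaled to the size of the library), to 21917 to 31846 CPM with LGK-974 and 27997 to 38114 CPM with DMSO. The 15 leukocyte markers summed to 547 to 711 CPM against 278 to 359 CPM, and the 12 fibroblast markers to 3933 to 6814 CPM against 1978 to 2957 CPM, with no overlap of the groups in either sum. Smooth muscle, which also uses desmin, had 8 markers that summed to 240 to 558 CPM against 235 to 403 CPM, and the 10 endothelial markers centered at a log2 fold change of 0.02. Sums of both lists overlapped between the groups. Skeletal muscle markers summed to at most 65.0 CPM, with Myh4, Actn3, Tnnc2 and Pvalb at 0 in some library.

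The 10 genes did not share 1 direction. Xirp2 and Synpo2l, which encode actin-binding proteins of the Z-disc and the intercalated disc, stood above all DMSO mice in each LGK-974 mouse, at 1.72-fold and 1.56-fold. Tcap, which encodes the titin cap telethonin, was lower in every LGK-974 mouse, at 0.604-fold. The other 7 overlapped between the groups. CPM here use the TMM factors of edgeR, which ran from 0.816 in LGK-974 replicate 2 to 1.40 in LGK-974 replicate 3. In TPM, an abundance scaled to transcript length and library without these factors, Xirp2, Synpo2l and Tcap overlapped as well. LGK-974 replicate 2 lay below DMSO replicate 2 in Xirp2 (287 against 303 TPM) and Synpo2l (37.1 against 42.3 TPM). For Tcap, LGK-974 replicate 3 (346 TPM) lay above DMSO replicate 1 (219 TPM). None of the 10 passed the quasi-likelihood test of edgeR after Benjamini-Hochberg adjustment, in which 0% of all tested genes passed, and the lowest adjusted p of any gene was 0.368. Without DMSO replicate 1 none of the 10 passed either, where 0.0108% of all genes did. By DESeq2, which called 1.23% of genes (0.853% higher and 0.373% lower with LGK-974), Tcap alone of the 10 fell (adjusted p = 0.00999). At an unadjusted p under 0.05 in edgeR's test 2 of the 10 were higher and 1 lower, where the shares of all genes were 6.26% and 7.18%. The groups did not overlap for 2 genes in the higher direction and 1 in the lower, where the shares of all genes were 10.7% and 7.27%. In a tissue sample, fewer muscle cells and less RNA per muscle cell cannot be told apart.

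**Figure D1:**
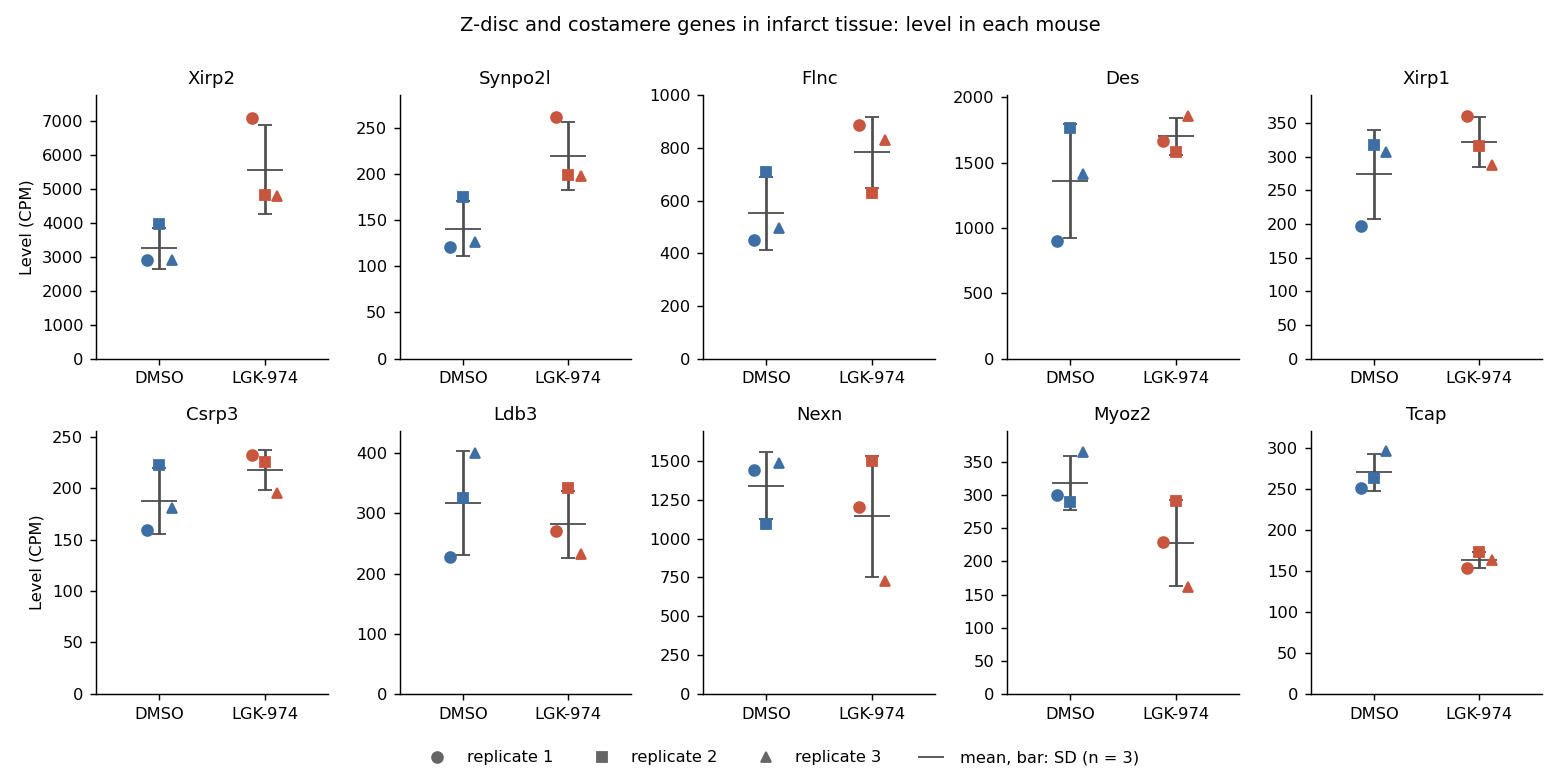
Level of each of the 10 genes in CPM (linear axis from 0) in the 3 DMSO and 3 LGK-974 mice, with the mean and the SD as bars; circles, squares and triangles are replicates 1, 2 and 3. In these TMM-scaled CPM, Xirp2 and Synpo2l sit higher and Tcap lower in every LGK-974 mouse. The other genes overlap between the groups.

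Xirp2 encodes a Xin-repeat protein that binds and bundles actin filaments and alpha-actinin at the Z-disc and the intercalated disc. It measured 7082, 4822 and 4772 CPM with LGK-974 and 2885, 3946 and 2886 CPM with DMSO. Every LGK-974 mouse was above every DMSO mouse, and LGK-974 replicate 1 was the highest of all. The means were 5559 ± 1319 (SD, n = 3) and 3239 ± 612 CPM (SD, n = 3), with a log2 fold difference of 0.78 ± 0.322 (standard error), and the adjusted p was 0.368 by edgeR and 0.0501 by DESeq2. Without DMSO replicate 1 it was 0.73 and without LGK-974 replicate 1 it was 0.55. Leukocyte and fibroblast marker sums were also higher in every LGK-974 mouse, and their part in the Xirp2 difference was not tested.

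Xirp1 encodes Xin, the relative of Xirp2 that is concentrated at the intercalated disc. Its levels were 361, 316 and 288 CPM with LGK-974 and 197, 317 and 306 CPM with DMSO. The groups overlapped, and DMSO replicate 1 was the lowest library. The log2 fold change was 0.23 (standard error 0.237) with an adjusted p of 0.620 by edgeR, and it was 0.07 without DMSO replicate 1. In counts, Xirp2 was 19.6, 15.2 and 16.6 times Xirp1 with LGK-974 and 14.6, 12.5 and 9.42 times with DMSO, a pair chosen after its values were seen. The ratio was higher in every LGK-974 mouse, by little between the lowest of them and DMSO replicate 1, and it was not tested.

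Synpo2l encodes the heart-enriched actin-associated protein of the Z-disc also called CHAP, which binds alpha-actinin. Its level was 261, 198 and 197 CPM with LGK-974 against 120, 175 and 126 CPM with DMSO. As for Xirp2, LGK-974 replicate 1 was highest and no mouse of the groups overlapped. The means were 219 ± 36.7 (SD, n = 3) and 140 ± 29.8 CPM (SD, n = 3), with a log2 fold difference of 0.64 ± 0.221 (standard error), and the adjusted p was 0.368 by edgeR and 0.102 by DESeq2. It was 0.56 without DMSO replicate 1 and 0.48 without LGK-974 replicate 1.

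Transcripts were compared as shares of their gene. Among the 18 transcripts of the 10 genes that held at least 10% of their gene's mean TPM (an abundance scaled to transcript length and to the library), only Synpo2l-203 had shares that did not overlap between the groups. That is 1 of 18, where 9.7% of all such transcripts of tested genes had shares without overlap, so the difference is described and not singled out by its frequency. It held 74.0%, 61.1% and 63.8% of the TPM of Synpo2l with LGK-974 and 48.2%, 58.4% and 55.6% with DMSO. The share was above that of every DMSO mouse in each LGK-974 mouse, and the mean was 66.3% ± 6.81 (SD, n = 3) against 54.1% ± 5.30 (SD, n = 3). By share of estimated counts in place of TPM the means were 62.5% and 50.2%, again without overlap. Synpo2l-203 stood at 184, 113 and 118 CPM with LGK-974 and 52.9, 95.3 and 65.7 CPM with DMSO, a 1.94-fold difference of the means. Synpo2l-201 stood at 70.0, 72.6 and 63.6 CPM against 58.7, 61.0 and 40.3 CPM, a 1.29-fold difference. Synpo2l-202, the rarest, had means of 11.5 and 15.8 CPM. These are estimates, since the transcripts share most of their sequence and Kallisto divides the shared reads between them, and no test was made of the shares.

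The 3 transcripts begin at different places. Synpo2l-201 has 4 exons and starts at base 20668306 of chromosome 14 (minus strand), and Synpo2l-202 starts close by at base 20668354. Synpo2l-203 has 2 exons and starts at base 20664574, inside an intron of the others. Its coding sequence has 749 codons against 975 in Synpo2l-201 and 978 in Synpo2l-202, and it opens in an exon of its own. The long form of CHAP is known to carry a PDZ domain, a protein-binding module, at its amino end, which the short form lacks. The coding part of each opening exon is shown because it is where the transcripts differ (GENCODE M21 transcripts of GRCm38, minus strand, capitals mark the start codon). The exon of Synpo2l-201 gives 96 coding bases at chr14:20668100-20668195, and that of Synpo2l-203 gives 85 at chr14:20664397-20664481.
Synpo2l-201: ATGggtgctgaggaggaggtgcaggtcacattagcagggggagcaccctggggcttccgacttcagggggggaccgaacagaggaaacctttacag
Synpo2l-203: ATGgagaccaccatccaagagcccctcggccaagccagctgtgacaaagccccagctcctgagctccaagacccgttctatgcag

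**Figure D2:**
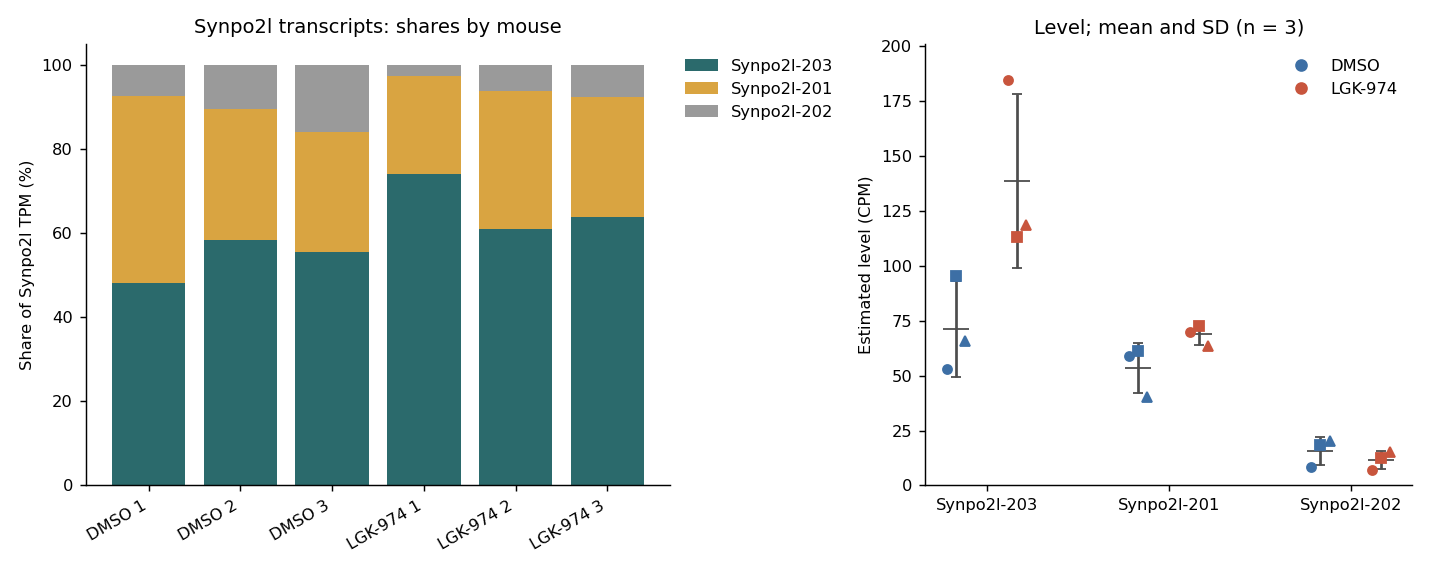
Left, share of each Synpo2l transcript in the gene's summed TPM (percent, bars from 0) in each of the 6 mice; right, estimated level of each transcript in CPM (linear axis from 0), with circles, squares and triangles for replicates 1, 2 and 3 and the mean and SD as bars. The share of Synpo2l-203 is 61.1% or more in every LGK-974 mouse and 58.4% or less in every DMSO mouse.

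The sequences before the start sites of Xirp2 and Synpo2l are shown because these genes had the closest pair of profiles over the 6 libraries among the 10, and because Synpo2l has a further start site. Each is the 250 bases before a RefSeq start on GRCm38.p6, with capitals for the match to the MEF2 site, the A/T-rich element bound by MEF2 factors in muscle. The windows are chr2:67445752-67446001 (plus strand) for Xirp2, chr14:20668355-20668604 (minus strand) for Synpo2l window 1, before the long transcripts, and chr14:20664575-20664824 (minus strand) for Synpo2l window 2, before the start of Synpo2l-203.
Xirp2: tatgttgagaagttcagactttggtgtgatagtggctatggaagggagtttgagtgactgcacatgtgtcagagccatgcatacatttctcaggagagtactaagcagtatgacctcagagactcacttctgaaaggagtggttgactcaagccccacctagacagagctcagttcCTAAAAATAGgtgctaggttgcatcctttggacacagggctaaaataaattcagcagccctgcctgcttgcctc
Synpo2l window 1: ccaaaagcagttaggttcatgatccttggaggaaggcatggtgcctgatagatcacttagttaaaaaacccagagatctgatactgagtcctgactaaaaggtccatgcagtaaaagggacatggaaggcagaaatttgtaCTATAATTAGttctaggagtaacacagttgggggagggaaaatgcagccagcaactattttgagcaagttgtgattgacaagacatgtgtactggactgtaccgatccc
Synpo2l window 2: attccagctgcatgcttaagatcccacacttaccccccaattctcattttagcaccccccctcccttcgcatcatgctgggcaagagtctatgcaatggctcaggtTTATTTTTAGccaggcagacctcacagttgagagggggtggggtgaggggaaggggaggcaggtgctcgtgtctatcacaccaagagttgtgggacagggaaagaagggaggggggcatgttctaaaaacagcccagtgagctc
The match begins 74 bases before the start in Xirp2, 109 in Synpo2l window 1 and 144 in Synpo2l window 2. Of all 32851 RefSeq windows of this length 2.92% held a MEF2 site on either strand, and a match is no evidence of binding.

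The search covered 7 of the 10 genes in 11 windows, and Tcap, Nexn and Xirp1 had no entry. Myoz2, with a lower mean with LGK-974, also held a MEF2 site, 33 bases before its start. The CArG box, bound by serum response factor, was found in Ldb3 alone, in both of its overlapping windows, at 35 and 109 bases before the start, and in 1.47% of all windows. The windows of Des, Flnc and Csrp3 held neither element. CATTCC, the core of the TEAD element, was in 1 window, of Flnc (12.6% of all windows). GATA was in 9 of the 11 windows (53.6% of all windows) and CANNTG, the E-box, in 7 (66.2%). All motifs were searched on both strands, and no match to a MEF2 site or a CArG box overlapped a match to another motif in these windows.

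Flnc encodes filamin C, the muscle filamin that cross-links actin and ties the Z-disc to the costamere and to the Xin-repeat proteins. It measured 888, 630 and 831 CPM with LGK-974 and 450, 708 and 496 CPM with DMSO. LGK-974 replicate 2 lay below DMSO replicate 2, so the groups overlapped by that pair of mice. The means were 783 ± 135 (SD, n = 3) and 551 ± 137 CPM (SD, n = 3), with a log2 fold difference of 0.51 ± 0.263 (standard error), and the adjusted p was 0.390 by edgeR. An annotated retained-intron transcript of 1151 bases, Flnc-203, held 66.8% of the TPM of Flnc, and counting the protein-coding transcripts alone, an alternative added after this was seen, left the log2 fold change at 0.51.

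Des encodes desmin, the intermediate filament protein that links Z-discs to each other, to the membrane and to the nucleus. Its levels were 1663, 1586 and 1854 CPM with LGK-974 and 897, 1763 and 1412 CPM with DMSO. The LGK-974 mice lay close together, the highest DMSO mouse fell within their range, and DMSO replicate 1 was the lowest. The log2 fold change was 0.33 (standard error 0.303), with an adjusted p of 0.591 by edgeR. It was 0.12 without DMSO replicate 1 and 0.55 without DMSO replicate 2.

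Csrp3 encodes muscle LIM protein, a Z-disc partner of telethonin. Its levels of 232, 225 and 195 CPM with LGK-974 and 159, 223 and 181 CPM with DMSO overlapped. The log2 fold change was 0.21 (standard error 0.195), with an adjusted p of 0.584 by edgeR, and it was 0.13 without DMSO replicate 1. Ldb3 encodes cypher (ZASP), a PDZ-LIM protein that binds alpha-actinin. It measured 270, 341 and 233 CPM with LGK-974 and 228, 325 and 400 CPM with DMSO. The DMSO mice spanned the whole range of the LGK-974 mice, and the log2 fold change of -0.17 ± 0.263 (standard error, edgeR's adjusted p = 0.748) turned to 0.13 without DMSO replicate 3 and to about 0 (0.0015) without LGK-974 replicate 3.

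Nexn encodes nexilin, an actin-filament-binding protein of the Z-disc. Its levels were 1201, 1498 and 729 CPM with LGK-974 and 1442, 1092 and 1488 CPM with DMSO. LGK-974 replicate 2 was the highest library and LGK-974 replicate 3 the lowest, so the spread within the treated group covered both groups. The log2 fold change was -0.23 ± 0.319 (standard error, edgeR's adjusted p = 0.724), and 0.076 without LGK-974 replicate 3.

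Myoz2 encodes calsarcin-1 (myozenin 2), which tethers the phosphatase calcineurin to alpha-actinin. It measured 229, 291 and 161 CPM with LGK-974 and 300, 289 and 365 CPM with DMSO. LGK-974 replicate 2 reached the lowest DMSO mouse, and the other LGK-974 mice lay below the DMSO group. The means were 227 ± 64.9 (SD, n = 3) and 318 ± 40.7 CPM (SD, n = 3), with a log2 fold difference of -0.49 ± 0.252 (standard error), and the adjusted p was 0.390 by edgeR. It was -0.23 without LGK-974 replicate 3 and -0.26 without DMSO replicate 3.

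Tcap encodes telethonin, which clamps the ends of a pair of titin molecules at the Z-disc. Its level was 154, 173 and 164 CPM with LGK-974 and 252, 264 and 296 CPM with DMSO. The LGK-974 mice lay close together, all under the lowest DMSO mouse. The means were 163 ± 9.39 (SD, n = 3) and 270.5 ± 22.8 CPM (SD, n = 3). The log2 fold change was -0.73 (standard error 0.171), with an unadjusted p of 0.00296 and an adjusted p of 0.368 by edgeR, and -0.70 with an adjusted p of 0.00999 by DESeq2. Leaving out any 1 mouse kept it between -0.76 and -0.55 in edgeR's fit. The annotation gives Tcap a single transcript of 948 bases, and no exon of it overlaps another gene.

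**Figure D3:**
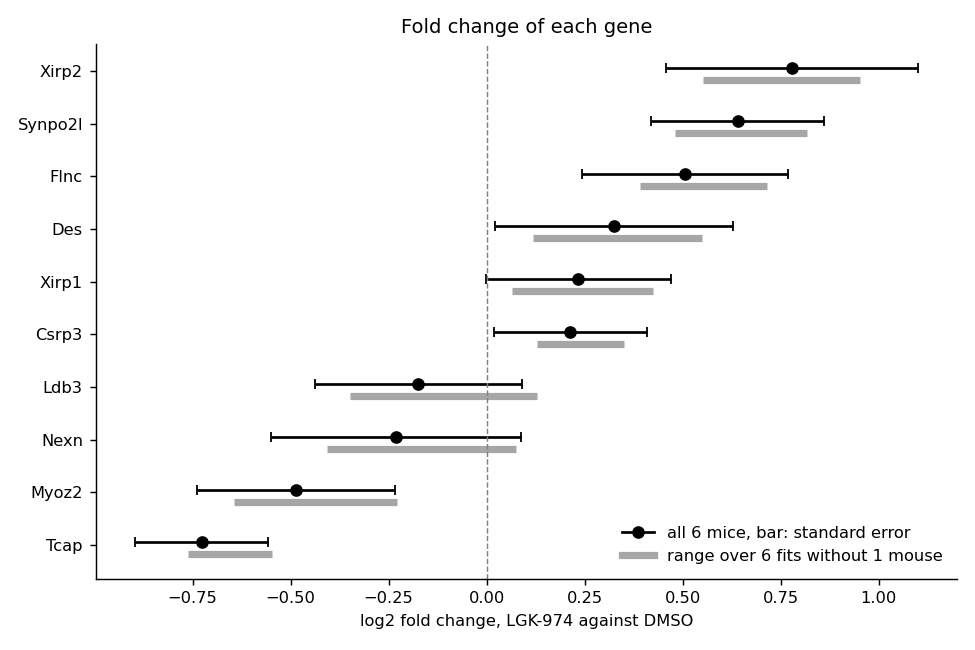
Log2 fold change of each of the 10 genes, LGK-974 against DMSO, from edgeR's fit on all 6 mice (point, bar for the standard error) and the range over the 6 fits that each leave out 1 mouse (gray). Xirp2 at 0.78 and Tcap at -0.73 are the ends of the range, and only the gray ranges of Ldb3 and Nexn cross 0.

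Of all 20094 tested genes 59.5% were below 0, with a median log2 fold change of -0.13. The median of the 10 genes was 0.22, with 6 above 0 and 4 below. It was 0.09 without DMSO replicate 1 and 0.14 without LGK-974 replicate 1. With library totals in place of TMM factors the median of all genes was 0.08 and that of the 10 genes 0.40, with 4 still below 0. The summed level of the 10 genes was 9425 to 12340 CPM with LGK-974 and 6931 to 9100 CPM with DMSO. These sums did not overlap. Xirp2 gave more than any other of the 10 to them, at 4772 to 7082 CPM with LGK-974 and 2885 to 3946 CPM with DMSO. With Xirp2 taken out, the sums of the remaining genes overlapped between the groups.

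The ratio of a pair of genes within a library does not depend on library scaling. Per Tcap count there were 46.0, 27.9 and 29.2 Xirp2 counts with LGK-974 and 11.5, 14.96 and 9.76 with DMSO. The groups stood well apart, with means of 34.4 ± 10.1 (SD, n = 3) and 12.1 ± 2.65 (SD, n = 3), a 2.85-fold difference for a pair picked after its values were seen. For Synpo2l against Tcap, a pair also picked after its values were seen, the ratios were 1.70, 1.15 and 1.21 with LGK-974. With DMSO they were 0.477, 0.662 and 0.427, and again no mice overlapped. Both separations were bound to follow, since in CPM Xirp2 and Synpo2l were higher and Tcap lower in every LGK-974 mouse. Actc1, the cardiac alpha-actin gene, was the only cardiomyocyte marker with a log2 fold change above 0 (0.86). Per Actc1 count there were 2.93, 2.26 and 1.78 Xirp2 counts with LGK-974 and 2.94, 2.16 and 2.42 with DMSO. The groups overlapped in that ratio.

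Profiles were compared as the root mean square difference of log2 CPM, centered on each gene's mean over the 6 libraries. The closest of the 10 genes to each other were Xirp2 and Synpo2l (0.0854), followed by Csrp3 and Xirp1 (0.138) and by Flnc and Synpo2l (0.143). Myoz2 and Nexn lay 0.173 apart. The pairs farthest apart were Tcap and Xirp2 (0.803), Myoz2 and Xirp2 (0.743) and Tcap and Synpo2l (0.734). Xirp2 and Synpo2l were each closer still to a gene outside the 10, S100a10, which encodes a small calcium-binding-family protein of many cell types (0.0688 and 0.0732). Among 8117 genes over 10 CPM, those closest to the median profile of the 10 were Mxra8 (0.0451), Smyd2 (0.0496), Eps15 (0.0531), Vcl (0.0537) and Sorbs2 (0.0561). All genes share the same 6 libraries, so these distances also carry what the libraries have in common.

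Levels were also set against the RNA of other genes of the heart muscle cell. The counts of each gene were divided by the summed counts of the 15 cardiomyocyte markers, 14 of which had a log2 fold change below 0, and given per 1000 marker counts. Xirp2 then measured 323, 151 and 200 with LGK-974 and 103, 122 and 75.7 with DMSO, a 2.25-fold difference of the means. Synpo2l measured 11.9, 6.22 and 8.28 against 4.29, 5.39 and 3.32, a 2.03-fold difference. On this scale 4 of the 10 genes were higher without overlap, where 23.4% of all genes were, and 1 was lower, where 1.51% of all genes were. In Xirp2 and Synpo2l no mice overlapped, with a 2-sided exact permutation p of 0.1, the smallest that 3 against 3 mice allow.

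Xirp1 and Csrp3, which overlapped in CPM, did not overlap on this scale. Xirp1 measured 16.5, 9.93 and 12.1 per 1000 marker counts with LGK-974 against 7.05, 9.76 and 8.04 with DMSO, a log2 difference of 0.61 (exact permutation p = 0.1). Csrp3 measured 10.6, 7.08 and 8.18 against 5.68, 6.87 and 4.74, a log2 difference of 0.58 (exact permutation p = 0.1). In both genes the lowest LGK-974 mouse, replicate 2, lay just above the highest DMSO mouse. Flnc (0.87) and Des (0.73) had log2 differences with an exact permutation p of 0.2 and overlapped by LGK-974 replicate 2. Ldb3 (0.20), Nexn (0.07) and Myoz2 (-0.17) overlapped.

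Tcap stayed lower in every LGK-974 mouse on this scale, at 7.02, 5.42 and 6.86 per 1000 marker counts against 8.99, 8.14 and 7.76, a log2 difference of -0.37 (exact permutation p = 0.1). Over the 10 ratios the lowest Benjamini-Hochberg adjusted permutation p was 0.2. The median log2 difference of the 10 ratios was 0.59, and 0.62 with the median marker in place of the sum. It was 0.42 without LGK-974 replicate 1 and 0.53 without DMSO replicate 1. The markers themselves had a median log2 fold change of -0.46, and a lower marker sum raises the ratio of every gene.

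**Figure D4:**
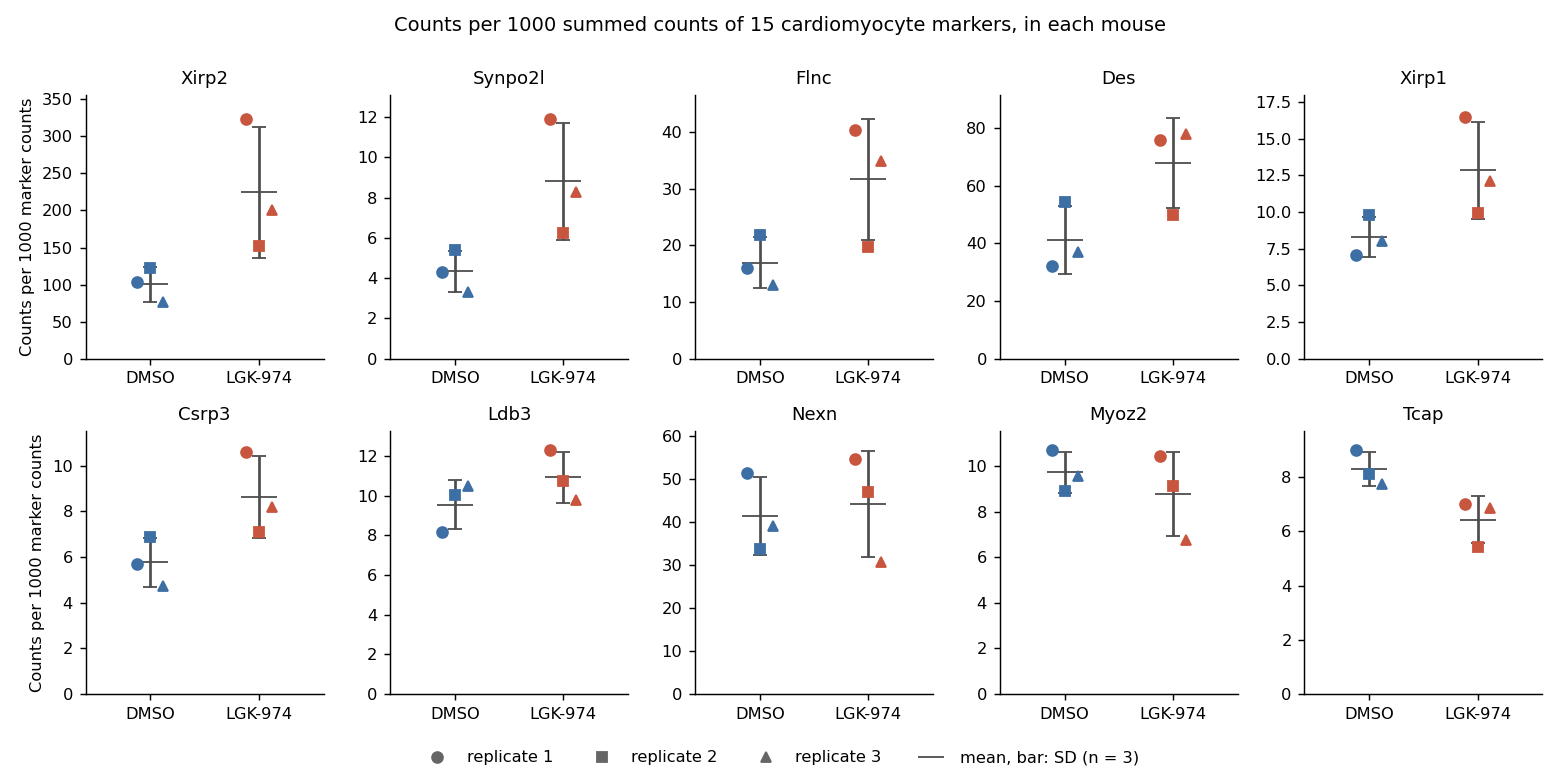
Counts of each of the 10 genes per 1000 summed counts of 15 cardiomyocyte markers (linear axis from 0) in each mouse, with the mean and SD as bars and circles, squares and triangles for replicates 1, 2 and 3. Xirp2, Synpo2l, Xirp1 and Csrp3 are higher and Tcap is lower in every LGK-974 mouse, and in the other 5 genes the groups overlap.

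Levels can be compared between genes per length, here as TPM over protein-coding transcripts and as the mean over 6 libraries. Capture probes were used to make the libraries, and how far they set the order was not tested. Nexn (804 TPM) and Des (541 TPM) were the most abundant, followed by Xirp2 (369.5 TPM), Csrp3 (279 TPM) and Tcap (272 TPM). Then came Myoz2 (196 TPM), Ldb3 (120 TPM), Flnc (63.2 TPM), Xirp1 (52.3 TPM) and Synpo2l (47.7 TPM). Ldb3 was the seventh in every library. Neighbors in the order mostly changed places between libraries: Nexn and Des held ranks 1 to 2 and 1 to 3, Xirp2 ranks 2 to 6, Csrp3 ranks 4 to 5, Tcap ranks 2 to 5 and Myoz2 ranks 4 to 6. Flnc, Xirp1 and Synpo2l filled ranks 8 to 10 in changing order. Xirp2 had the most counts of the 10 genes in every library and a transcript of 11979 bases. In TPM, which is per length, Nexn exceeded it in every library. A transcript of 1174 bases, Nexn-216, held 45.5% of the TPM of Nexn, and its part in this order was not tested.

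The partners of these proteins were read from lists that do not hold the 10 genes. By edgeR 0% of all tested genes passed the adjusted threshold, so no list could hold a called gene, and by DESeq2 1.23% passed. Of all tested genes 59.5% had a log2 fold change below 0, and 9671 of 18547 did without DMSO replicate 1. Of 34 other Z-disc genes, 0 passed the adjusted threshold in either direction by edgeR or by DESeq2, 17 had a log2 fold change above 0 and 17 below, and the median was 0.00 (15 above and 19 below without DMSO replicate 1, median -0.06). The groups did not overlap for 5 of the 34 in the higher direction, where 10.7% of all genes did not, and for 0 in the lower, where the share was 7.27%. Actn2, the alpha-actinin of the Z-disc, measured 710, 893 and 596 CPM with LGK-974 and 667, 944 and 999.8 CPM with DMSO, a log2 fold change of -0.25. Ttn, which encodes titin, had -0.21. Both overlapped between the groups. The smallest unadjusted p-values of the list by edgeR belonged to the actin capping subunit gene Capza1 (0.72), and to Pdlim7 (0.76) and Pdlim1 (0.40), which encode PDZ-LIM proteins of the family of cypher (log2 fold changes, each with an adjusted p of 0.368 by edgeR).

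On the integrin side of the costamere, 0 of 17 genes passed by either tool (0% of all genes by edgeR, 1.23% by DESeq2). In this list 13 were above 0 and 4 below, with a median log2 fold change of 0.14. Without DMSO replicate 1 it had 11 above and 6 below, with a median of 0.096. Of all genes 59.5% were below 0, and 9671 of 18547 were without DMSO replicate 1. Vcl, which encodes vinculin, measured 252, 229 and 216 CPM with LGK-974 and 158, 241 and 232 CPM with DMSO. Its log2 fold change of 0.14 was -0.01 (-0.0075) without DMSO replicate 1, the library with the lowest level. The adhesion genes Zyx (0.66) and Tln1 (0.55, talin) were higher in every LGK-974 mouse, and Lims2 (-0.49) overlapped. Of the 17 genes, 3 did not overlap in the higher direction and 0 in the lower, where the shares of all genes were 10.7% and 7.27%. These costamere genes are used by many cell types, fibroblasts and leukocytes included, and the part of those cells in the values was not tested.

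On the dystrophin side, 0 of 22 genes passed by either tool (0% of all genes by edgeR, 1.23% by DESeq2). In this list 10 were above 0 and 12 below, where 59.5% of all genes were below, with a median of -0.07. Without DMSO replicate 1 there were 7 above and 15 below, with a median of -0.12. Of all genes, 9671 of 18547 were below 0 in that fit. Dmd, which encodes dystrophin, had a log2 fold change of -0.19 with overlapping groups, and it was 0.077 without LGK-974 replicate 3 and 0.025 without DMSO replicate 3. Dtnb, a dystrobrevin gene, had -1.17, and -0.51 without DMSO replicate 1, where it stood at 40.6 CPM against 13.9 and 16.6 CPM in the other DMSO mice. Sntb1 (0.54, a syntrophin) and Dtnb did not overlap between the groups, and Sgca (-0.67, alpha-sarcoglycan) did. Of the 22 genes, 4 did not overlap in the higher direction and 2 in the lower, where the shares of all genes were 10.7% and 7.27%.

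Of 16 genes of the intercalated disc, 0 passed by either tool (0% of all genes by edgeR, 1.23% by DESeq2). In the list 7 were above 0 and 9 below, where 59.5% of all genes were below, with a median log2 fold change of -0.03. Without DMSO replicate 1 the list had 2 above and 14 below, with a median of -0.19. Of all genes, 9671 of 18547 were below 0 in that fit. Dsg2, which encodes a desmosomal cadherin of the heart, measured 70.6, 106 and 47.8 CPM with LGK-974 and 116, 123 and 170 CPM with DMSO. Every LGK-974 mouse was below every DMSO mouse, with a log2 fold change of -0.87 (adjusted p = 0.368 by edgeR). Ctnna3 (-0.56, an alpha-catenin) and Tmem43 (0.52) overlapped. In this list 0 genes did not overlap in the higher direction and 1 in the lower, where the shares of all genes were 10.7% and 7.27%. Dsp, which encodes desmoplakin, the plaque protein that holds desmin at the disc, had -0.25, and 0.031 without DMSO replicate 3.

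**Figure D5:**
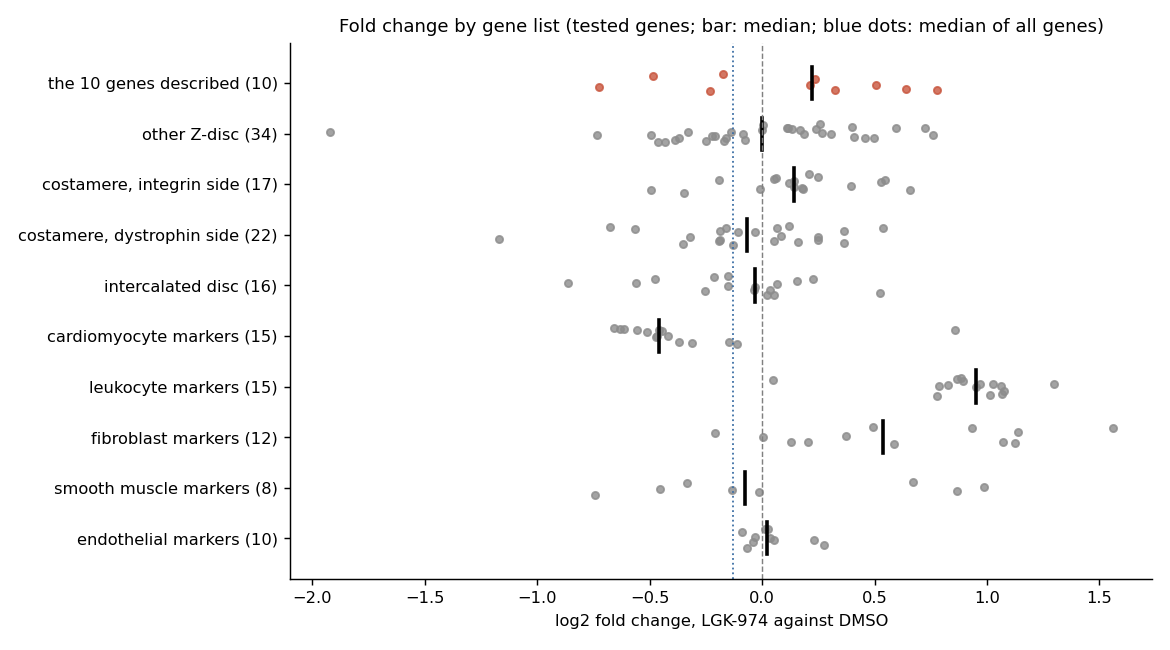
Log2 fold change, LGK-974 against DMSO, of every tested gene in each list (points; the number tested in parentheses), with the median as a bar and a dotted line at the median of all tested genes. The 10 genes spread from -0.73 to 0.78 around a median of 0.22, the leukocyte markers center at 0.95, and 14 of 15 cardiomyocyte markers lie below 0.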

How the data were processed

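RNA of the infarct area from 3 LGK-974 and 3 DMSO mice was depleted of ribosomal RNA and made into libraries with a capture kit. The authors quantified transcripts with Kallisto on a GRCm38 index and deposited 2 values for each of 118489 transcripts in a library, an estimated count (not normalized) and a TPM. The version and strand setting of Kallisto are not given in the sources used here. A capture kit measures only what its probes reach.

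Of the transcripts, 98.6% were joined to 36047 genes through GENCODE M21. Gene counts are rounded sums of the estimated counts, and genes that reached 10 counts in 3 or more libraries were tested with edgeR 4.0.16 (R 4.3.3, glmQLFit and glmQLFTest, TMM factors, no covariate) with Benjamini-Hochberg adjustment over all tested genes and a threshold of 0.05. CPM values use the TMM-scaled library sizes. DESeq2 1.42.0 and limma 3.58.1 (voom) were alternatives, as were other scaling factors, no filter and counts scaled from TPM. Further alternatives were a fit without mitochondrial genes, a replicate block and leaving out each mouse. Scripts were tested on simulated data. Ratios to cardiomyocyte markers used exact 2-sided permutation tests over all 20 splits of the mice. Transcript shares, profiles and motif searches are descriptions. With 3 mice per group, the p-values of edgeR and DESeq2 set the group difference against a spread between mice that is estimated partly from all genes. The permutation p-values place the observed difference among the 20 splits. Intervals for counting error are not given, since the smallest count of the 10 genes in a library was 4782.

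The 10 genes, the lists of other Z-disc, costamere and intercalated disc genes and the marker lists were chosen with earlier results of these data known. All 10 genes were described. Of each other list, the 3 genes with the smallest p were named, plus Actn2, Ttn, Vcl, Dmd and Dsp whatever their values, and the 5 genes closest to the median profile. Actc1 and S100a10 were named after their values were seen. No protein sequence was used here.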

Additional observations from a re-analysis of the deposited data

How the results depend on the processing

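Of 150 values of the 10 genes under 15 alternatives, 146 kept their direction and their side of the threshold. Tcap passed the threshold by DESeq2 alone, which made the number of the 10 genes called 1 in place of 0, and DESeq2 was not refitted without single mice. Leaving out a mouse took the log2 fold change of Ldb3 from -0.35 to 0.13 (0.0015 without LGK-974 replicate 3, 0.13 without DMSO replicate 3) and that of Nexn from -0.41 to 0.076 (the latter without LGK-974 replicate 3). Leaving out each mouse in turn gave 0 of the 10 genes called in each fit, 2 to 4 genes below 0, a median log2 fold change of 0.09 to 0.36 and a median log2 difference of the ratios to cardiomyocyte markers of 0.42 to 0.74. Of 238 values of the 17 named genes of other lists, 233 kept direction and side. Over the fits without 1 mouse, Vcl ranged from -0.0075 (without DMSO replicate 1) to 0.32, Dmd from -0.30 to 0.077 (without LGK-974 replicate 3, and 0.025 without DMSO replicate 3) and Dsp from -0.40 to 0.031 (without DMSO replicate 3). Dtnb passed with no filter on low counts (adjusted p = 0.0473 by edgeR). The causes were not tested. Over all genes, calls numbered 0 in the reported fit of edgeR (2699 at an unadjusted p under 0.05), 289 by DESeq2, 1206 with no filter and 2 without DMSO replicate 1.

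Mice with the same replicate number deviated from their group means with correlations of 0.47, -0.05 and 0.39, and mice with unlike numbers with -0.52 to 0.10. LGK-974 replicate 2 correlated best with DMSO replicate 3, and the labels give no source for a pairing, so the numbers were not taken to pair the mice. With the replicate number as a block, edgeR called 0 genes (3312 at an unadjusted p under 0.05) and 0 of the 10, whose median log2 fold change was 0.24.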
